A study of Mus musculus with 10 samples.

Results

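A set of 1242 open chromatin regions was absent from both ATAC-seq peak lists of Npm1c haematopoietic stem and progenitor cells (HSPCs) and present in all 6 lists of the other genotypes. These regions, called Npm1c-missing here, are 1.2% of the 103446 regions obtained by merging the peaks of 8 libraries on chromosomes 1 to 19 and X wherever they shared at least 1 bp. They are 4.35% of the 28577 regions that had a peak in all 6 of the other lists. They were chosen by the presence and absence of peaks in these same lists, so their absence in Npm1c is a description and was not tested.

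ATAC-seq maps open chromatin by inserting sequencing adapters with the Tn5 transposase. All 8 libraries were of bone marrow cells depleted of mature lineages, from mice on the C57BL/6 strain, with 2 biological replicates per genotype. Npm1c mice were Npm1flox-cA/+;Mx1-Cre+, Flt3-ITD mice were Flt3ITD/+, double mutant (DM) mice were Npm1flox-cA/+;Flt3ITD/+;Mx1-Cre+, and wild-type (WT) mice carried none of these alleles. Neither the age of the mice nor the way Mx1-Cre was induced is stated in the labels. The Npm1c allele acts only in cells in which Mx1-Cre, a Cre recombinase under an interferon-inducible promoter, has recombined it. The labels name no Cre for Flt3-ITD or WT, so the Npm1c allele and the Cre cannot be told apart. The series' WT neutrophil libraries were left out, being not analysed here.

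Nucleophosmin, the product of Npm1, is a shuttling protein of the nucleolus, and the leukaemia-associated frameshift called Npm1c moves it to the cytoplasm. Peaks of ATAC-seq mark promoters, where transcription starts and where CG-rich sequence is common in mammals, and enhancers, which act on genes at a distance. In bulk cells, a peak can fall below a caller's threshold because fewer cells of a type are present or because each cell is less open there, and these cannot be told apart.

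Among the Npm1c-missing regions, 83 held a whole promoter window of a protein-coding gene, here the 250 bases before to 50 bases after a RefSeq start site on GRCm38.p6. The windows of the 6 widest of these 83 are printed to show their CG dinucleotides, since the promoter composition of the set is described below. They lie at chr2:30474150-30474449 (minus strand) for Ier5l, chr10:80137338-80137637 (minus) for Cbarp, chr13:55464017-55464316 (plus) for Prr7, chr11:97699599-97699898 (minus) for Pcgf2, chr10:19851410-19851709 (minus) for Slc35d3 and chr11:3774619-3774918 (minus) for Osbp2. Each is written 5′ to 3′ on the strand of its gene, with every CG dinucleotide in capitals.
Ier5l: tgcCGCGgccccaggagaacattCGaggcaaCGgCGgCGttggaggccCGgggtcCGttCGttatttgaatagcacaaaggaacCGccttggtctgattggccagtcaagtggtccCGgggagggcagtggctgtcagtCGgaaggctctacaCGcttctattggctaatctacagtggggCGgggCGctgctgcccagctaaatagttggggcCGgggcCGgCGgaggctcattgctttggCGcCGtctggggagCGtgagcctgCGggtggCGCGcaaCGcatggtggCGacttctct
Cbarp: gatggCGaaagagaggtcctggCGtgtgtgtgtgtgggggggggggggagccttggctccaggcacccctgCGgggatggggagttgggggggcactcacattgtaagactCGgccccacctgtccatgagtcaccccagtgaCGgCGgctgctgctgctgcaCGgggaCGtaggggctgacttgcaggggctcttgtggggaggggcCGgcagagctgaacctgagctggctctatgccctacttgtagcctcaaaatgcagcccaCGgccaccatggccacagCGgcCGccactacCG
Prr7: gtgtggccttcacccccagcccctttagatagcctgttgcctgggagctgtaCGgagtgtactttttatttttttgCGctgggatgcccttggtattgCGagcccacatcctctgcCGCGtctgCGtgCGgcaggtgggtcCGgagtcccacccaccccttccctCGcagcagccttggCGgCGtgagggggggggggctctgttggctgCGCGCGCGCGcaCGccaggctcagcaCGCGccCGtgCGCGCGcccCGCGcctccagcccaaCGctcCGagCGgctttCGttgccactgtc
Pcgf2: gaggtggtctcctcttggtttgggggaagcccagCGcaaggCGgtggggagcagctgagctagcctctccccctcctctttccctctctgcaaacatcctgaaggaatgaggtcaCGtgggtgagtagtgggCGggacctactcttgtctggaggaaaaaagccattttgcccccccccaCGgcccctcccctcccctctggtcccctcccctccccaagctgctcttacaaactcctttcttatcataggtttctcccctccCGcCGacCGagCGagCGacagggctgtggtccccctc
Slc35d3: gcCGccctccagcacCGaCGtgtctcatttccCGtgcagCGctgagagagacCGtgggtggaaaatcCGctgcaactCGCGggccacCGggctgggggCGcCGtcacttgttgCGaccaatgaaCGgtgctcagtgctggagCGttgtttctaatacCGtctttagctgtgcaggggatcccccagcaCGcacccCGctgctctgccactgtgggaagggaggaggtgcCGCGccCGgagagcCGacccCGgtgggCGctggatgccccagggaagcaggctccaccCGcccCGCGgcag
Osbp2: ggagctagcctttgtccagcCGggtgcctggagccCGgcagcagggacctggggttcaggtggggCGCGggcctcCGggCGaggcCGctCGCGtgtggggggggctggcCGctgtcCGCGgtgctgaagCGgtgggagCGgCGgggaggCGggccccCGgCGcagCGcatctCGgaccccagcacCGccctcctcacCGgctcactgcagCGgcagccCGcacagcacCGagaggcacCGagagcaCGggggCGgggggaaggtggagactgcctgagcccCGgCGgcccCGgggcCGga

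The window of Osbp2, which codes for an oxysterol-binding protein, held 32 CG dinucleotides and had 77.7% GC. Those of Prr7, Slc35d3 and Ier5l held 29, 27 and 26, with 67.7%, 67.7% and 63.7% GC. The windows of Cbarp, a regulator of voltage-gated calcium channels, and Pcgf2, a Polycomb group subunit, held 13 and 10, with 66.3% and 61.7% GC. So the windows differ in CG number more than in GC content. The GC box, searched as GGGCGG on both strands, occurred in the windows of Ier5l, Pcgf2, Slc35d3 and Osbp2 and in neither of the windows of Cbarp and Prr7.

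In Npm1c, 62782 and 68676 peaks were listed, against 43825 and 51733 for Flt3-ITD, 55624 and 63133 for DM, and 80916 and 63908 for WT. The Npm1c lists were thus longer than both Flt3-ITD lists. The files give positions only, so a peak has no height and the number of reads behind it is unknown. Of 526 regions at haematopoietic stem cell genes, the Npm1c libraries had a peak in 58.6% and 66.5%, the Flt3-ITD libraries in 35.4% and 41.8%, the DM libraries in 45.3% and 50.95%, and the WT libraries in 76.4% and 57.03%. Outside the Npm1c-missing set, the Npm1c libraries called 58952 and 65242 of all regions and the Flt3-ITD libraries 38830 and 46376. The DM libraries called 50927 and 58768, and the WT libraries 76760 and 58916. The 8 libraries had the same order by both measures, so the stem cell shares ran with the number of regions called. Npm1, Flt3 and Mx1 had no Npm1c-missing region, and the 3 regions at Npm1 were called in both Npm1c lists. A peak list shows openness only and does not check the engineered alleles.

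The same rule turned to the other genotypes gave 1193 regions missing only in Flt3-ITD, which are 1.15% of all regions and 4.12% of those called in the 6 lists of the other genotypes. It gave 2872 missing only in DM (2.78% and 9.48%) and 17 missing only in WT (0.0164% and 0.0623%). WT replicate 1, the longest list, lacked a peak at only those 17, so the WT count could not be higher. DM carries the Npm1c allele and Mx1-Cre and yet had a peak in every Npm1c-missing region, which the rule required. Another 2465 regions (2.38%) had a peak in both Npm1c lists and in no other list. The Npm1c-missing regions were 19.2% of the 6480 regions (6.26% of all regions) present in both WT lists and neither Npm1c list.

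Just outside the rule, 2429 regions were absent from both Npm1c lists and had a peak in 5 of the 6 other lists. Of these, 1925 lacked only a peak in WT replicate 2, while 270 and 66 lacked one only in Flt3-ITD replicate 1 or 2, 121 and 37 only in DM replicate 1 or 2, and 10 only in WT replicate 1. WT replicate 2 therefore stood closest to Npm1c at these regions, and values without it are given beside the main results. With WT replicate 2 left out, 3170 regions were missing only in Npm1c, 9.80% of the 32355 regions called in the 5 remaining lists. A further 1166 regions were called in all 6 other lists and in 1 Npm1c list, where the Npm1c peak shared a median of 265 bp with the other lists. At Prss56, Nav1, Cdk19, Cnn2 and Appl2, the Npm1c peak was 200 bp wide, the narrowest width in any list, and all of it was shared with the other lists.

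Each Npm1c list was read at regions chosen without it. Of 2049 regions called in all 6 other lists and absent from Npm1c replicate 1, 60.6% were also absent from replicate 2, against 1.35% of the 26528 that were present in replicate 1. Of 1601 absent from replicate 2, 77.6% were also absent from replicate 1, against 2.99% of the 26976 present in it. The corresponding shares were 47.9% and 78.8% in Flt3-ITD, 85.0% and 79.5% in DM, and 100.0% (17 of 17) and 1.53% (17 of 1115) in WT. Absence from either Npm1c library was thus mostly shared by the other one, while absence from WT replicate 2 was rarely shared by WT replicate 1. WT replicate 1 had the longest list and lacked a peak at only 17 of the 27284 regions called in the lists of the other genotypes. The share of 1.53% could therefore not be higher, and it is no measure of how well the WT replicates match. These shares were not tested, since regions are not replicates of a genotype.

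Peaks at these regions were narrower, in every list that held them, than peaks at regions open in all libraries. Width is given as a percentile within the peak's own list, which depends on how many narrow peaks that list holds. The median percentile over the 1242 regions was 36.5 and 40.4 in Flt3-ITD, 46.2 and 54.0 in DM, and 49.0 and 24.2 in WT, or 333, 357, 384, 423.5, 415.5 and 305 bp. In regions called in all 8 lists, the median percentile was 66.6 and 70.7 in Flt3-ITD, 73.7 and 76.2 in DM, and 80.9 and 74.6 in WT. The peak was widest in DM replicate 2 for 548 of the 1242 regions (44.1%) and narrowest in WT replicate 2 for 635 (51.1%).

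**Figure D1:**
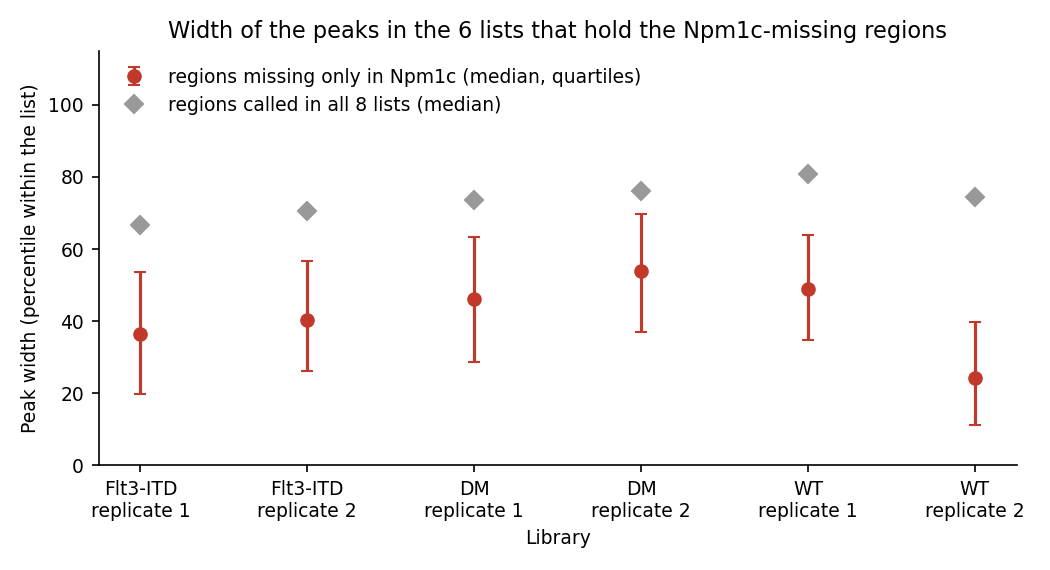
Width of the peaks at the Npm1c-missing regions, as a percentile within each list, in the 6 libraries that hold them. Circles are medians over 1242 regions with quartiles as bars, and diamonds are medians over the regions called in all 8 lists. Every circle lies below its diamond, and WT replicate 2 is lowest at 24.2.

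Width was compared between genotypes over libraries. The rule set no width, but membership is not independent of it, since a wider peak is more likely to share a base with a Npm1c peak. The median percentile averaged 50.1 ± 5.51 in DM (SD, n = 2), against 37.5 ± 10.3 in Flt3-ITD and WT together (SD, n = 4), a difference of 12.6 percentile points. A two-sided exact permutation test over the libraries gave p = 0.267, or 0.533 after Benjamini-Hochberg adjustment over 2 comparisons. It averaged 44.3 ± 7.61 in Flt3-ITD and DM together (SD, n = 4), against 36.6 ± 17.5 in WT (SD, n = 2), a difference of 7.65 points with an exact permutation p = 0.533 (adjusted 0.533). Neither comparison passed the test, and 6 libraries cannot give a p under 0.0667 in either. The DM difference was 21.6 points without WT replicate 2 (exact permutation p = 0.1, the smallest possible there). It was 8.29 without DM replicate 2, which leaves 1 DM library, and 7.03 with lists cut to equal length at the widest peaks (exact permutation p = 0.6). The difference of Flt3-ITD and DM from WT was 19.9 without WT replicate 1, which leaves 1 WT library. It was 4.79 and 4.13 without DM replicate 1 or 2 (exact permutation p = 0.8 each) and 4.46 without peaks under 300 bp (p = 0.667). With lists of equal length it was 16.8, where the exact permutation p = 0.0667 is the smallest the design allows. Both differences thus stayed positive, and their sizes rest on single libraries and on list length.

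The regions had a median width of 514.5 bp after merging, ranging over 298 to 2947 bp, against 1000 bp for regions called in all 8 lists. A median of 232 bp, or 46.4% of the region, was covered in all 6 lists, and 19 regions (1.53%) had no base covered in all 6. When the 28577 regions called in the 6 other lists were ranked by mean width percentile and cut into terciles, 986 of 9526 in the narrowest tercile (10.4%) were missing in Npm1c. The shares were 2.54% in the middle and 0.147% in the widest tercile. A wider region is more likely to share a base with a Npm1c peak, so these shares are not independent of the rule. The widest region was in Irf8, a transcription factor of monocytes and dendritic cells, at chr8:120750073-120753019. Its peaks were 559 and 375 bp wide in Flt3-ITD, 1012 and 2947 bp in DM, and 396 and 275 bp in WT, so that DM replicate 2 alone gave the region its width.

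The 10 widest of the set had mean width percentiles between 81.95 and 87.1 over the 6 lists. At Ier5l (chr2:30473285-30474568, spanning the start site), peaks were 1013 and 1157 bp wide in Flt3-ITD, 1284 and 1233 bp in DM, and 1169 and 613 bp in WT, and the nearest Npm1c peak was 848 bp away. At the start site of Cbarp (chr10:80136682-80138162), they were 1014 and 910 bp in Flt3-ITD, 1230 and 1273 bp in DM, and 841 and 738 bp in WT. At both genes DM was widest and WT replicate 2 narrowest.

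A region at chr4:135079865-135080976 lay outside Runx3, a transcription factor of T and NK cells, 40225 bp from the nearer boundary of that gene. Peaks there were 938 and 1057 bp wide in Flt3-ITD, 1063 and 1045 bp in DM, and 999 and 573 bp in WT. In Hdac5, a class IIa histone deacetylase (chr11:102207801-102209311), widths were 878 and 905 bp in Flt3-ITD, 1437 and 1511 bp in DM, and 883 and 464 bp in WT. The DM peaks were the widest at Hdac5, while at Runx3 those of Flt3-ITD replicate 2 and DM were close. Near Hmga1, an architectural chromatin protein (chr17:27552299-27553281), widths were 850 and 756 bp in Flt3-ITD, 941 and 897 bp in DM, and 983 and 679 bp in WT.

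In Lrp5, a co-receptor for Wnt ligands (chr19:3685724-3686916), peaks were 1063 and 969 bp in Flt3-ITD, 1001 and 534 bp in DM, and 1085 and 1035 bp in WT. In Flrt1, a cell adhesion protein (chr19:7115989-7117512), they were 817 and 882 bp in Flt3-ITD, 800 and 809 bp in DM, and 1489 and 911 bp in WT. These 2 were widest in WT replicate 1, and WT replicate 2 was not the narrowest at either. At Gjd3, a connexin (chr11:98981984-98982982), they were 855 and 857 bp in Flt3-ITD, 957 and 876 bp in DM, and 918 and 864 bp in WT, close to each other in all 6 libraries. The other 2 of the 10 widest lay at the start site of Prr7, a proline-rich membrane protein, and inside Htt, which codes for huntingtin.

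At start sites and gene ends, the widest also included Matk, a kinase that restrains Src family kinases, Itgb5, an integrin subunit, Nptxr, a neuronal pentraxin receptor, Pcgf2 and Slc35d3. The Itgb5 peaks were 715 and 841 bp wide in Flt3-ITD, 855 and 842 bp in DM, and 788 and 799 bp in WT, a narrow spread over all 6 libraries. The Pcgf2 peaks were 1032 and 773 bp in Flt3-ITD, 638 and 536 bp in DM, and 1276 and 915 bp in WT. Both WT peaks of Pcgf2 were wider than both DM peaks, the opposite order to Hdac5.

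The distance to Npm1c peaks varied widely. The gap between a Npm1c-missing region and the closest peak of either Npm1c list had a median of 6378 bp and quartiles of 2389.5 and 14216 bp. It was within 1 kb for 150 regions (12.1%) and beyond 10 kb for 435 (35.02%). The shortest gaps were 12 bp at Rabepk, 118 bp at Gucy2e, 126 bp at Tm9sf4, 146 bp at Atxn1 and 148 bp at Tfeb, a transcription factor of lysosomal genes. At Rabepk no base was covered in all 6 lists that held the region. The longest were 1318653 bp in Il1rapl1 on chromosome X, 729740 bp at chr18:85697844-85698286, which has no gene within 100 kb, 251492 bp near Npy, 219908 bp near Galnt18 and 167477 bp at Pax2.

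The nearest regions called in the 6 other lists, one on each side, were themselves absent from both Npm1c lists in 14.1% of 2484 cases, against 4.35% over all such regions. They were present in both Npm1c lists in 76.4%, against 91.6%. Runs of 3 Npm1c-missing regions within 20 kb lay at Mylk2 and Dusp15 on chromosome 2 and at Rhbg, an ammonium transporter, on chromosome 3. Of the windows of 20 kb that start at one of the regions, 168 held 2 of them and 16 held 3.

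The Npm1c-missing regions were unevenly spread over the genome. Gene density, which the rule did not use, was counted as protein-coding gene midpoints in the 1 Mb window centred on a region, a measure added after the data were seen. The median was 21 genes for the Npm1c-missing regions, 7 for regions missing only in Flt3-ITD, 12 for those missing only in DM, 6 for those open only in Npm1c, 13 for those called in all 8 lists and 11 for all regions. Of regions called in the 6 other lists, 1.20% were missing in Npm1c where the window held 0 to 4 genes, 1.65% at 5 to 9, 4.36% at 10 to 19, 7.27% at 20 to 29 and 7.35% at 30 or more.

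The corresponding shares for Flt3-ITD ran the other way, at 10.9%, 5.64%, 3.01%, 1.59% and 0.780%. For DM they were 9.73%, 9.59%, 10.1%, 9.77% and 7.40%, with no such slope below 30 genes. Regions open only in Npm1c also ran the other way, at 5.51%, 3.13%, 1.5%, 0.763% and 0.409% of all regions in each class. Within the narrowest tercile of peaks, the Npm1c shares were 2.50%, 3.85%, 10.4%, 18.6% and 20.6%, so the slope was also present among narrow peaks. Over peaks of all widths and without WT replicate 2, the shares of the 5 classes were 4.46%, 6.03%, 10.3%, 14.3% and 13.3%, and the ratio of the share at 20 or more genes to that under 10 was 2.49, against 4.81 with all libraries. Without Npm1c replicate 2 the ratio was 3.00.

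**Figure D2:**
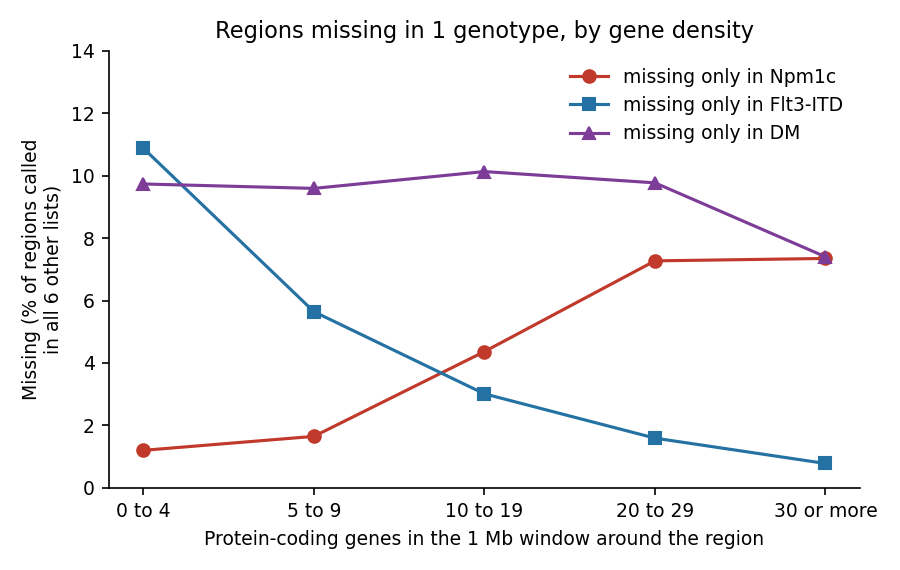
Percent of regions called in the 6 other lists that were missing in Npm1c (circles), Flt3-ITD (squares) or DM (triangles), by the number of protein-coding genes in the 1 Mb around the region. The Npm1c share goes up to 7.35% in the class with most genes, while the Flt3-ITD share goes down to 0.780% there.

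The whole peak lists differed in the same direction. With the Npm1c-missing regions left out, 21.8% and 20.5% of the regions called in Npm1c had 20 or more genes in the window, against 31.2% and 30.6% in Flt3-ITD, 27.0% and 26.6% in DM, and 25.1% and 25.9% in WT. Both Npm1c libraries lay below all 6 others. The part of this difference between whole lists in the choice of the Npm1c-missing regions was not tested.

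**Figure D3:**
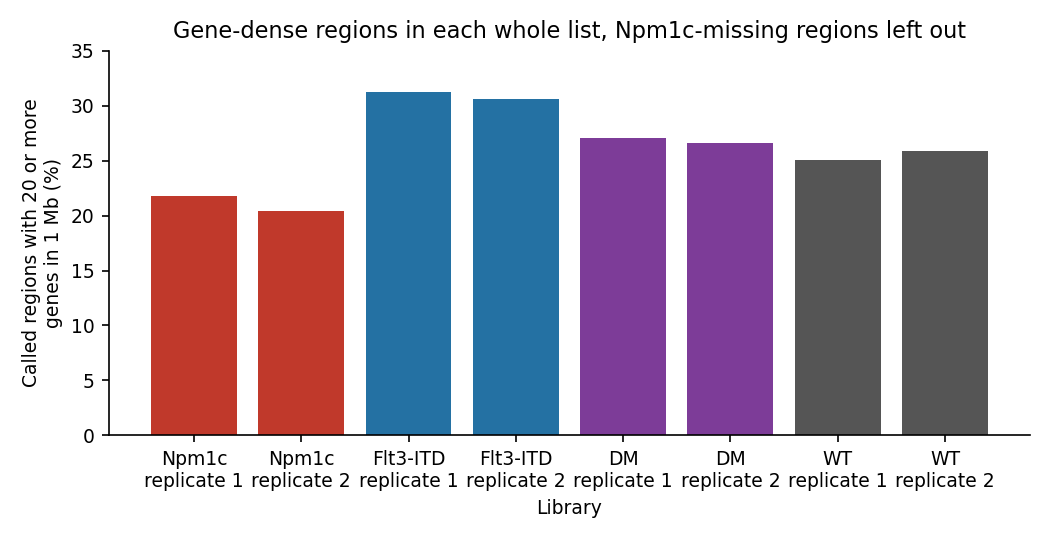
Percent of the regions called in each library that had 20 or more protein-coding genes in 1 Mb, with the Npm1c-missing regions left out. The Npm1c bars, at 21.8% and 20.5%, are the lowest of the 8.

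Chromosomes 11, 17 and 19 held 407 of the Npm1c-missing regions (32.8%), against 14.4% of all regions. These 3 were picked as the chromosomes with the highest shares missing in Npm1c, so the comparison is not independent of that choice. They held 27.9% of the Npm1c-missing regions without WT replicate 2 and 28.7% without Npm1c replicate 2. With lists of equal length they held 27.8%. Of regions called in the 6 other lists, 8.88% were missing in Npm1c on chromosome 11 (204 regions), 8.74% on chromosome 17 (121) and 8.71% on chromosome 19 (82). The lowest shares were 0.975% on chromosome X (5 regions), 1.76% on chromosome 18 (14) and 1.85% on chromosome 3 (25). For Flt3-ITD, the share was 7.85% on chromosome X, 1.55% on chromosome 19 and 1.88% on chromosome 11. Chromosomes 11, 17 and 19 held 12.5% and 12.2% of the other regions called in Npm1c, 16.2% and 16.3% of those in Flt3-ITD, 15.5% and 15.6% in DM, and 14.3% and 14.02% in WT.

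**Figure D4:**
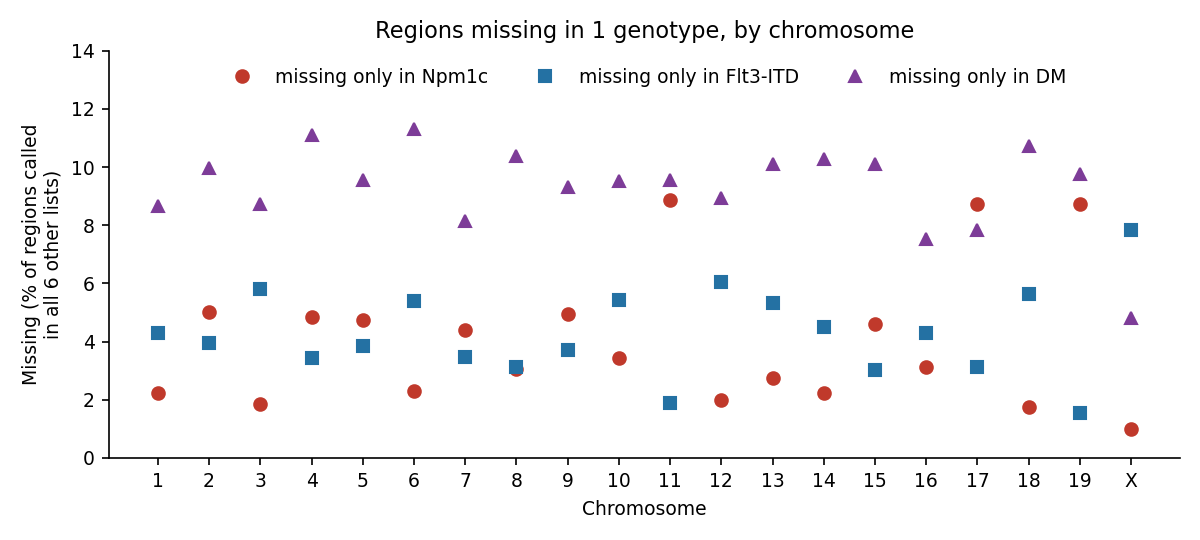
Percent of regions called in the 6 other lists that were missing in Npm1c (circles), Flt3-ITD (squares) or DM (triangles) on each chromosome. The 3 highest Npm1c points are on chromosomes 11, 17 and 19, and the Npm1c point of chromosome X, at 0.975%, is the lowest.

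By position, 63.0% of the Npm1c-missing regions had their midpoint inside a gene, against 49.96% of those missing only in Flt3-ITD, 64.2% of those missing only in DM, 65.03% of those called in all 8 lists and 59.6% of all regions. Within 1 kb of a gene end lay 211 of them (16.99%), against 6.87% of those missing only in Flt3-ITD, 7.10% of those missing only in DM, 37.0% of those called in all 8 lists and 14.6% of all regions. Another 31.6% lay in neither place. Beyond 100 kb from any gene lay 17 (1.37%), against 5.19% of all regions. The share near gene ends thus lay above those of the sets missing in Flt3-ITD or DM and below that of regions open everywhere. Without WT replicate 2, 10.7% lay within 1 kb of a gene end. A gene end means either boundary of a gene, whichever is nearer. The gene table gives no exons, so exon, intron or UTR is not stated.

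A RefSeq start site lay inside 146 of the regions, 11.9% of those outside chromosome 18, for which no promoter windows were used. This share was close to the 11.2% of all regions and below the 35.5% of regions called in all 8 lists. Their promoter windows had a median GC content of 65.7% and a median of 22 CG dinucleotides. The medians were 50.7% and 8 at 61 regions missing only in Flt3-ITD, 51.8% and 5 at 144 missing only in DM, 47.5% and 5 at 16 open only in Npm1c, and 61.7% and 22 at regions called in all 8 lists. Over all start-site regions they were 60.7% and 20. A GC content of 70% or more was found at 50 of the 146 (34.3%), against 17.8% of start-site regions called in all 8 lists. The median GC content of the Npm1c-missing promoters thus lay above that of promoters open in every library, while the median CG number was equal. Without WT replicate 2, the median GC content of the Npm1c-missing promoters was 62.75%, nearer to the 61.7% of promoters open in every library. Both medians of the sets missing in Flt3-ITD or DM lay below those of promoters open in every library.

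Of start-site regions called in the 6 other lists, 0.872% were missing in Npm1c where GC was under 50%, 0.905% at 50 to 55%, 1.43% at 55 to 60%, 1.22% at 60 to 65%, 1.59% at 65 to 70% and 2.95% at 70% or more. In the Flt3-ITD comparison the first and last classes were 3.30% and 0.247%, and in the DM comparison 6.12% and 0.247%. The median width percentile of these regions was 76.9 under 50% GC and 92.2 at 70% or more, and within the narrowest tercile the Npm1c shares were 2.82%, 8.0%, 15.3%, 20.8%, 24.6% and 37.5%, the last being 24 of 64 regions. Without WT replicate 2, 2.26% were missing under 50% GC and 3.52% at 70% or more.

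**Figure D5:**
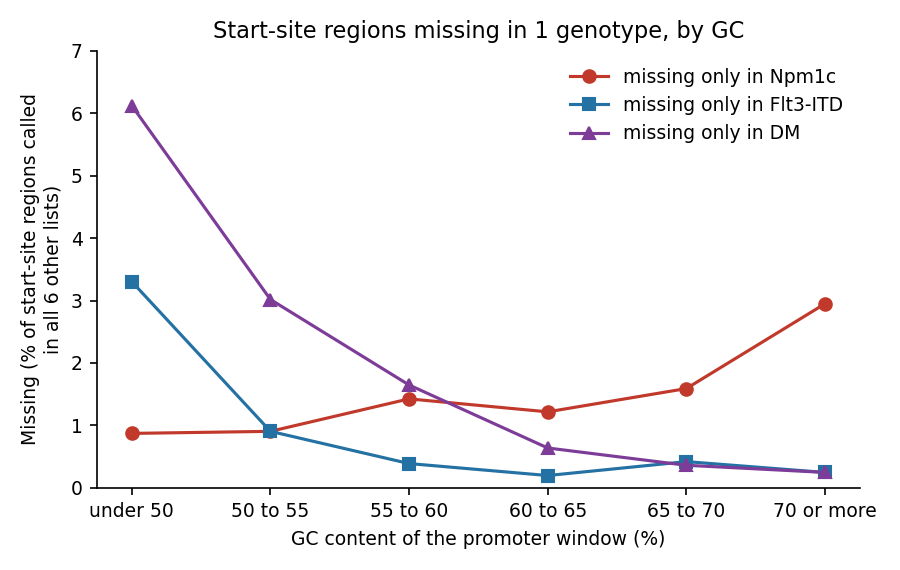
Percent of start-site regions called in the 6 other lists that were missing in Npm1c (circles), Flt3-ITD (squares) or DM (triangles), by GC content of the promoter window. The Npm1c point at 70% or more is 2.95%, against 0.247% for Flt3-ITD and DM there.

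The whole lists again differed alongside. Among all start-site regions with the Npm1c-missing ones left out, a window of 70% GC or more was called in 89.4% and 92.2% of cases in Npm1c, 91.0% and 93.7% in Flt3-ITD, 94.4% and 94.1% in DM, and 98.6% and 95.6% in WT. Under 50% GC, the shares were 85.0% and 88.3% in Npm1c, against 68.1% and 72.0% in Flt3-ITD, 73.7% and 76.8% in DM, and 92.3% and 81.6% in WT. The ratio of the 2 shares was 1.05 and 1.04 in Npm1c, against 1.34 and 1.30 in Flt3-ITD, 1.28 and 1.23 in DM, and 1.07 and 1.17 in WT. The ratios closest to 1 were those of both Npm1c libraries and WT replicate 1. The part of the libraries' base composition in the set was not tested.

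Short motifs were counted on both strands of the 164 promoter windows at Npm1c-missing regions. The GC box GGGCGG was in 64.0%, against 28.4% of windows at regions missing only in Flt3-ITD, 32.1% at those missing only in DM, 67.6% at regions called in all 8 lists and 35.9% of all 32619 windows. Windows at Npm1c-missing regions were close to those of regions open everywhere in this respect. The motif of ETS factors, CCGGAAG, was in 2.44%, against 7.46% of windows at regions missing only in Flt3-ITD, 3.77% at those missing only in DM, 19.1% at regions called in all 8 lists and 8.92% of all windows. Here the share lay below that of regions open everywhere. The motif of GATA factors, AGATAAG, was in 0 of the 164, against 7.46% of windows at regions missing only in Flt3-ITD, 15.1% at those missing only in DM, 1.55% at regions called in all 8 lists and 3.04% of all windows.

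The motif of RUNX factors, TGTGGTT, was in 4.88% of the 164 windows, against 14.9% at regions missing only in Flt3-ITD, 3.59% at regions called in all 8 lists and 5.29% of all windows. The motif of AP-1, TGACTCA, was in 2.44%, against 3.12% at regions called in all 8 lists and 5.22% of all windows. The E-box of MYC and related factors, CACGTG, was in 8.54%, against 10.8% at regions called in all 8 lists and 7.20% of all windows. The TATA box, searched by the letters TATAAA, was in 7.32%, against 5.79% at regions called in all 8 lists and 13.7% of all windows. For these last 2 motifs, the set lay between regions open everywhere and all windows. No searched motif lies within another. A match is a run of letters only and no evidence of binding.

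The 1225 regions with a gene within 100 kb were assigned to 1002 genes, of which 830 had 1, 139 had 2, 15 had 3 and 18 had 4. Among these genes, 770 (76.9%) kept another region that was called in all 8 lists, so most of the genes had open regions left in Npm1c. At 18 genes with at least 2 of the regions, every region called in the 6 other lists was missing in Npm1c. Lctl, a lactase-like protein, had 4 of 4, and Cbarp and Igdcc4 had 3 of 3 each. The others, with 2 of 2 each, were Rgs11, Camkv, Nptxr, Matk, Mxra7, Pcgf2, Rin1, Tulp1, Yjefn3, Pltp, Slc13a2, Sptbn5, Tmem119, Ngfr and Dpysl5. Only Cbarp and Rgs11 had no further region. Lctl had 9 regions in all, Ngfr 7 and Dpysl5 8, so these genes were not shown to be closed in Npm1c. How many genes had at least 2 regions called in the 6 other lists was not counted, so the 18 have no background.

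The genes named for the most regions had 4 each. They included Lctl (of 9 regions in all), Lrp5 (of 14), Socs3 (of 14), 1700001O22Rik (of 16), Map3k14 (of 16), Neurl1b (of 18), Paqr5 (of 20), Cstad (of 24) and Foxo3 (of 25). Lctl, Lrp5 and Neurl1b, a ubiquitin ligase of Notch signalling, had no region called in all 8 lists, while Socs3, an inhibitor of JAK-STAT signalling, and 1700001O22Rik had 3 and Map3k14, the NF-kappaB-inducing kinase, had 4. The 4 regions of Lctl were 382 to 587 bp wide, with WT replicate 2 peaks of 377, 324, 212 and 394 bp. The 4 of Foxo3, a transcription factor of stem cell quiescence, were 404 to 580 bp wide and 4154 to 30790 bp from the nearest Npm1c peak.

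Gene lists gave 77 of the 1242 regions among 5098 list regions (1.51%), against 1.2% of all regions. Of list regions called in the 6 other lists, 5.54% were missing, against 4.35%. The lists were near the background as a whole, and a few stood above it. No list was tested, and the lists hold regions of unlike gene density. Many list regions lie outside the gene bodies, and with gene bodies only the 77 became 39.

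Lymphoid and other lineage lists were as follows. In the list of T and NK cell genes, 9 of 48 regions called in the 6 other lists (18.8%) were missing, at Runx3 (4), Notch1 (3), a receptor needed for T cell fate, and Tcf7 (2), a transcription factor of T cell progenitors. Only 3 of the 9 lay inside a gene body of the list, and 6 regions were found with lists of equal length. Called shares over all 197 regions of that list were 31.5% and 37.6% in Npm1c, against 38.1% and 43.2% in Flt3-ITD, 59.9% and 74.6% in DM, and 65.5% and 47.2% in WT. DM was thus above the single mutants at these regions. The same order held at the 113 regions of neutrophil genes, with 69.91% and 73.45% in DM. Npm1c had 44.25% and 42.48% there, and Flt3-ITD 39.82% and 46.9%. At the stem cell genes given above, DM lay below Npm1c. Over all regions outside the set, DM called 50927 and 58768, more than Flt3-ITD (38830 and 46376) and fewer than Npm1c (58952 and 65242). The order of DM and Npm1c at T and NK cell genes was thus the reverse of that over all regions, while that of DM and Flt3-ITD was the same. The 197 regions include the 9 missing ones, which the rule made absent in Npm1c and present in DM. The neutrophil regions include 2 such regions. The counts over all regions leave the set out, so they have an unlike base. Whether T or NK cells differ in number was not tested. With WT replicate 2 left out, 30.5% of 59 regions were missing there, against 9.80% overall.

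Among stem cell genes 3 of 123 were missing (2.44%), at Runx1 (2) and Fgd5. At monocyte and macrophage genes it was 4 of 67 (5.97%), at Ly86 (2), Spi1 and Irf8, and at neutrophil genes 2 of 29 (6.90%), at Fcnb and Padi4. Without WT replicate 2 those shares were 8.51%, 21.3% and 20.5%, the last from 8 of 39 regions. B lymphoid genes had 2 of 35 (5.71%), both at Dntt, and megakaryocyte genes 3 of 75 (4.0%), at Runx1 (2) and Gp9. Erythroid genes had 0 of 56, but 2 of 59 (3.39%) without WT replicate 2, and 2 regions with lists of equal length. Dendritic cell genes had 2 of 66 (3.03%), at H2-Eb1 and Irf8, and mast cell genes 1 of 27 (3.70%), at Srgn.

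Lists of genes typical of other tissues also had shares above 4.35%. Neuronal and synaptic genes had 9 of 58 (15.5%), with 2 each at Bsn and Mdga1 and 1 each at Syn1 and Grin1 among them, and stroma and endothelium genes 5 of 33 (15.2%), at Pdgfrb (2), Col1a1, Eng and Pecam1. The start-site region of Mdga1 (chr17:29887225-29888839) had peaks of 472 and 692 bp in Flt3-ITD, 359 and 359 bp in DM, and 1525 and 839 bp in WT, so WT was widest in both libraries. A region in Bsn (chr9:108110257-108111866) had 450 and 726 bp in Flt3-ITD, 787 and 683 bp in DM, and 1610 and 1412 bp in WT, again with both WT peaks widest. Syn1 codes for synapsin I, and its region overlapped the hairpin Mir5617. The regions called in the 6 other lists had a median of 29 genes in 1 Mb at neuronal genes and 20 at stroma and endothelium genes. Leaving out WT replicate 2, 26.4% of 72 regions at neuronal genes and 17.1% of 41 at stroma and endothelium genes were missing.

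Haematopoietic transcription factors and JAK-STAT genes were nearer the background of 4.35%. Haematopoietic transcription factors had 19 of 336 (5.66%), led by Foxo3 (4), Runx3 (4), Rara (3), the retinoic acid receptor alpha, and Tcf7 (2). JAK-STAT and FLT3 signalling genes had 8 of 182 (4.40%), with Socs3 (4), Cbl, Ptpn11 and Stat5b among them. At one Socs3 region (chr11:117974402-117975208), peaks were 362 and 380 bp in Flt3-ITD, 446 and 489 bp in DM, and 709 and 662 bp in WT, the only one of the 4 in which both WT peaks were widest. HOX genes and cofactors had 3 of 31 (9.68%), of which 2 lay at Mn1 and 1 was 31874 bp from Hoxb1. AP-1 and immediate early genes had 3 of 78 (3.85%), at Dusp1, Fosl2 and Nr4a1, and interferon response genes 2 of 38 (5.26%), at Ifnar1 and Irf1.

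Among chromatin genes, histone modifying enzymes had 11 of 148 (7.43%), at Gse1 (4), Kdm2b (2) and Hdac5 among them. Kdm2b, a demethylase that binds unmethylated CG-rich DNA, had a region at a start site whose nearest Npm1c peak was 215 bp away. BAF remodelling genes had 2 of 70 (2.86%), at Bcl7a and Smarcd3, and DNA methylation genes 1 of 34 (2.94%), at Dnmt1. Heat shock genes had 0 of 31, nucleolus and ribosome biogenesis genes 0 of 40 and housekeeping genes 0 of 45. Without WT replicate 2 these became 1 of 32, 1 of 43 and 2 of 49, all below the 9.80% of all regions.

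Hairpins of 4 small RNAs were overlapped by the regions, namely Mir33 in Srebf2, which is a miRNA of cholesterol transport, Mir3075 in Zmiz1, Mir5617 in Syn1 and Gm23363 in Dnm1. The 1925 regions absent also from WT replicate 2 had a median of 16 genes in 1 Mb, 6.49% within 1 kb of a gene end and a median promoter GC content of 59.1%, against 21, 16.99% and 65.7% for the 1242. The 504 regions absent from 1 of the other 5 lists instead had medians of 20 genes and 63.3% GC, with 21.4% near a gene end. The 1166 called in 1 Npm1c list had medians of 18 genes and 64.2% GC, with 16.7% near a gene end.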

How the data were processed

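The 8 HSPC ATAC-seq peak lists were used. Reads were aligned with Bowtie2 and peaks called with MACS2 on mm10, per the submitters' processing notes. Of versions, thresholds, duplicate removal and Tn5 shifting, nothing is given in the sources used here. Each deposited list belongs to 1 library and has 3 columns (chromosome, start, end) without a score, so read depth is unknown and the precision of a call cannot be given. A longer list can come from deeper sequencing or from more open chromatin.

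Peaks were merged where they shared 1 bp, and a region was called in a library with a peak in it. Coordinates count from 1. A region went to the gene that held its midpoint, or else to the closest gene end up to 100 kb away (RefSeq, GRCm38.p6, the build of mm10, 21633 genes). Promoter windows were RefSeq's. Python 3.11.15, numpy 2.4.6, pandas 2.3.3 and scipy 1.17.1 were used, and the merging and counting were tested on simulated lists.

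Members and gene lists were chosen with earlier results of these data known. Named are the 10 widest by mean width percentile, the 10 genes with most members, up to 4 genes per list, the 10 widest at promoters or gene ends, the 3 densest runs, and the 5 farthest from or nearest to a Npm1c peak. Named too are 5 regions called in 1 Npm1c list whose shared length with it was the smallest, at 200 bp. Some items this rule names are not reported here. Genes whose every region was a member, the miRNA hairpins, the widest member, the Osbp2 window and single regions singled out within a gene were chosen after their values were seen. Alternatives were list length, merging, filters, replicates left out and a replicate block.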

Additional observations from a re-analysis of the deposited data

How the results depend on the processing

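Of 239 recomputed values, none reversed, 43 moved and 196 stayed within the limits used, which for the 2 width tests ask only for the same direction and side of the threshold. The smallest exact permutation p these libraries allow, 0.0667, lies above that threshold, so for these 2 tests only the direction could change. Leaving out 1 library at a time gave 1273 to 3170 regions (3170 without WT replicate 2, 2048 without Npm1c replicate 2), 60.8% to 71.9% and 77.7% to 83.0% absent in the unused Npm1c library, 59.1% to 63.7% inside a gene, 10.7% to 17.7% near a gene end, 31.0% to 37.3% elsewhere, a gene density ratio of 2.49 to 5.19 and width differences of 8.29 to 21.6 (DM) and 4.13 to 19.9 percentile points (Flt3-ITD and DM together). Lists cut to equal length at the widest peaks gave 71.6% and 69.6% absent in the unused library and 20.02% near a gene end, with width differences of 7.03 and 16.8 points. A gene end distance of 2 kb gave 24.6%, and counting only gene bodies gave 39 regions at list genes. With a replicate block, the width differences were 12.6 (DM) and 7.64 percentile points (Flt3-ITD and DM together), with exact permutation p of 0.333 and 0.556. Replicate numbers are not known to mark shared batches. Of 66 recounts of single lists, 42 stayed within 1.5 times. Among those that did not, gene bodies only gave 3 regions at T and NK genes, 3 at stroma and endothelium genes, 2 at JAK-STAT genes, 9 at haematopoietic transcription factors and 0 at HOX genes, and equal list length gave 12 at haematopoietic transcription factors and 1 at HOX genes. Of the 35 regions named by width, by distance to a Npm1c peak or as runs, 19 were still missing only in Npm1c with lists of equal length. Without peaks under 300 bp it was also 19, and in every other setting it was 26 or more. A filter at 200 bp removed nothing, since no peak is narrower. The gene density, chromosome and GC values, the 300 bp filter and the lists without WT replicate 2 were added after the data were seen. The cause of each move was not tested. The unknown depth limits every absence to "no peak listed".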
